A study of Mus musculus with 8 samples.

Results

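The genes that switch on type I interferon were followed in mouse bone marrow-derived macrophages (BMMs) with and without Rbpj. They were 9 genes picked by symbol from a table of 24421 genes, 3 of the kinase complex (Ikbke, Tbk1, Tank), 3 sensors and adaptors (Mavs, Tmem173, Mb21d1) and 3 interferon regulatory factors (Irf3, Irf5, Irf1). Tmem173 encodes STING and Mb21d1 encodes cGAS. All 9 were in the table and all 9 passed the filter of at least 1 CPM (the read count of a gene scaled to the library's total in genes) in at least 2 of 8 libraries.

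BMMs are macrophages grown from marrow precursors. The knockout cells carried Rbpj f/f with LysMCre, which deletes Rbpj in cells that express the myeloid LysM gene, and the control cells were labelled wild type with no further allele given. There were 4 groups of 2 libraries, namely knockout with TNF at 40 ng/ml for 2 days, wild type with TNF at 40 ng/ml for 2 days, knockout at day 0 and wild type at day 0. Untreated cells were sampled at day 0 alone, so effects of TNF and of 2 days in culture cannot be told apart, and the sources used here do not give the animals' age, sex or number. The series names 2 independent experiments but no animals, and the p-values reflect the scatter of these libraries, which may be technical.

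Foreign or misplaced nucleic acid is read by receptors that converge on a small kinase module. RNA bound by RIG-I-like receptors signals through MAVS on mitochondria, while DNA bound by cGAS yields a cyclic dinucleotide that activates STING on the endoplasmic reticulum. Both adaptors recruit TBK1 and its relative IKK-epsilon (Ikbke), which phosphorylate IRF3 so that it enters the nucleus and drives interferon genes. TANK is a scaffold that binds the 2 kinases, IRF5 acts downstream of Toll-like receptors, and IRF1 is itself induced by interferon-gamma and TNF. In macrophages TNF is known to feed a weak autocrine interferon-beta loop.

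On GRCm38 (GENCODE M21) the kinase genes are Ikbke on chromosome 1 (131254343 to 131279606, minus strand, ENSMUSG00000042349.13) and Tbk1 on chromosome 10 (121546455 to 121586787, minus strand, ENSMUSG00000020115.3). Tank lies on chromosome 2 (61578585 to 61654171, plus strand, ENSMUSG00000064289.15), and so does Mavs (131234063 to 131248025, plus strand, ENSMUSG00000037523.13). Irf1 is on chromosome 11 (53770014 to 53778374, plus strand), Irf3 on chromosome 7 (44997648 to 45002848, plus strand), Irf5 on chromosome 6 (29526625 to 29541871, plus strand) and Mb21d1 on chromosome 9 (78430526 to 78443237, minus strand). All are protein coding.

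Library depth ran from 9855859 to 35653203 reads in genes, the lowest being replicate 1 of the knockout with TNF. Rbpj stood at 30.0 and 21.4 CPM in the knockout with TNF, against 226 and 178 CPM in wild type with TNF, and at 38.9 and 31.8 CPM in the knockout at day 0, against 215 and 216 CPM in wild type at day 0. Each knockout library was therefore below every wild-type library (log2 difference -2.96 with TNF, limma adjusted p = 0.0735 or, blocked by replicate number, 0.00339, and log2 difference -2.60 at day 0, limma adjusted p = 0.238 or, blocked, 0.0264). Hes1, a target that RBP-J can repress, was at 1.83 and 1.32 CPM in the knockout with TNF, 0.0561 and 0.254 CPM in wild type with TNF, 9.18 and 7.15 CPM in the knockout at day 0 and 0.0729 and 0.111 CPM in wild type at day 0. All 8 macrophage markers checked passed the filter, with summed levels of 4905 and 6197 CPM in the knockout with TNF, 7053 and 7683 CPM in wild type with TNF, 5438 and 9185 CPM in the knockout at day 0 and 5507 and 6951 CPM in wild type at day 0. They did not all hold their level. With the block 3 of the 8 were called lower and 0 higher in the knockout than in wild type after TNF (median -1.22 log2), 3 lower and 0 higher with TNF in the knockout (-0.32) and 1 lower and 1 higher with TNF in wild type (0.21). Of all genes, 3.75% were called lower and 5.53% higher in the first of these comparisons. The shares were 13.7% and 12.2% with TNF in the knockout, and 4.71% and 5.54% with TNF in wild type. Fcgr1, a high-affinity antibody receptor, was at 5.17 and 5.96 CPM in the knockout with TNF, 12.5 and 43.2 CPM in wild type with TNF, 167 and 439.8 CPM in the knockout at day 0 and 149 and 331 CPM in wild type at day 0. Summed neutrophil markers (8 genes) were at 33.8 and 50.2 CPM in the knockout with TNF and 60.8 and 139 CPM in wild type with TNF, against 187 and 1006 CPM in the knockout at day 0 and 145 and 836 CPM in wild type at day 0. Summed osteoclast markers (8 genes) were at 18466 and 43963 CPM in the knockout with TNF and 4898 to 6554 CPM in wild type with TNF, against 132 to 200.4 CPM in the knockout at day 0 and 128 to 157 CPM in wild type at day 0. In a bulk library a change in the share of a cell type and a change in RNA per cell cannot be told apart, and the part of these marker lists in the values below was not tested.

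Ikbke, the inducible kinase, was the member whose TNF response differed most in size between the genotypes. It reached 126 and 121 CPM in the knockout with TNF, 317 and 329.9 CPM in wild type with TNF, 83.2 and 71.2 CPM in the knockout at day 0 and 74.9 and 66.2 CPM in wild type at day 0. Wild-type cells with TNF were the high group, the knockout with TNF lay between them and the day 0 cells, and the 2 genotypes overlapped at day 0. The means were 124 ± 3.85 CPM in the knockout with TNF, 323 ± 9.08 CPM in wild type with TNF, 77.2 ± 8.47 CPM in the knockout at day 0 and 70.5 ± 6.14 CPM in wild type at day 0 (SD, n = 2 each).

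TNF raised Ikbke in wild type by 2.19 ± 0.21 on the log2(CPM + 0.5) scale (± is the standard error of limma, adjusted p = 0.0151, or 0.00144 in a fit that adds a block for replicate number). The 2 replicate pairs gave 4.23-fold and 4.98-fold. In the knockout the log2 change was 0.68 ± 0.14 in the fit with the block (limma adjusted p = 0.0180, and 0.130 without it), and the pairs gave 1.52-fold and 1.70-fold. After TNF the knockout was lower than wild type, with a log2 difference of -1.38 ± 0.14 (limma adjusted p = 0.0165 with the block, and 0.119 without it), at 0.399 and 0.367 of the wild-type level in replicates 1 and 2. At day 0 the log2 difference was 0.13, with a 95% interval of -0.22 to 0.47 in the fit with the block. Intervals here are for each gene alone.

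The difference between the TNF responses of Ikbke, knockout minus wild type, was -1.51 ± 0.20 on the log2 scale with the block (95% interval -2.00 to -1.02), yet it missed the threshold after adjustment over all 12194 genes (limma adjusted p = 0.104, and 0.641 without the block). DESeq2 on reads recovered from the CPM passed it (adjusted p = 0.00978). The Ikbke rise in wild type held in each of the 8 blocked fits that dropped 1 library (adjusted p 0.00216 to 0.0207). Without the block it lost its call when either wild-type library of either time was left out (adjusted p 0.0578 to 0.158). The lower level in the knockout after TNF lost its blocked call without replicate 2 of the knockout with TNF (adjusted p = 0.0960) or of wild type with TNF (0.140). The smaller rise in the knockout lost its blocked call without any 1 of the 4 knockout libraries (0.0559 to 0.161).

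Tbk1, the constitutive kinase of the pair, moved little. It stood at 98.6 and 139 CPM in the knockout with TNF, 106 and 152 CPM in wild type with TNF, 124 and 167 CPM in the knockout at day 0 and 129 and 163 CPM in wild type at day 0. All 4 groups overlapped, and the highest library was 1.69 times the lowest, against 4.98 times for Ikbke. No contrast passed for Tbk1 in limma with or without the block (adjusted p 0.150 to 1). The 95% interval of its difference between knockout and wild type after TNF was -0.44 to 0.21 on the log2 scale, which does not show equal levels but leaves out a difference as large as that of Ikbke.

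Tank rose with TNF in both genotypes by the fit with the block. It stood at 159 and 337 CPM in the knockout with TNF, 132 and 292 CPM in wild type with TNF, 47.6 and 113 CPM in the knockout at day 0 and 55.0 and 92.7 CPM in wild type at day 0. Replicate 2 was the higher library in each group, and every TNF library was above every day 0 library. The change was 1.65 ± 0.17 log2 in the knockout (limma adjusted p = 0.00178 with the block, and 0.205 without it) and 1.45 ± 0.17 log2 in wild type (0.00536 with the block, and 0.429 without it). The call in wild type was lost without replicate 2 of wild type with TNF (adjusted p = 0.0549). The 2 responses differed by 0.20 log2, with a 95% interval of -0.36 to 0.76.

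**Figure D1:**
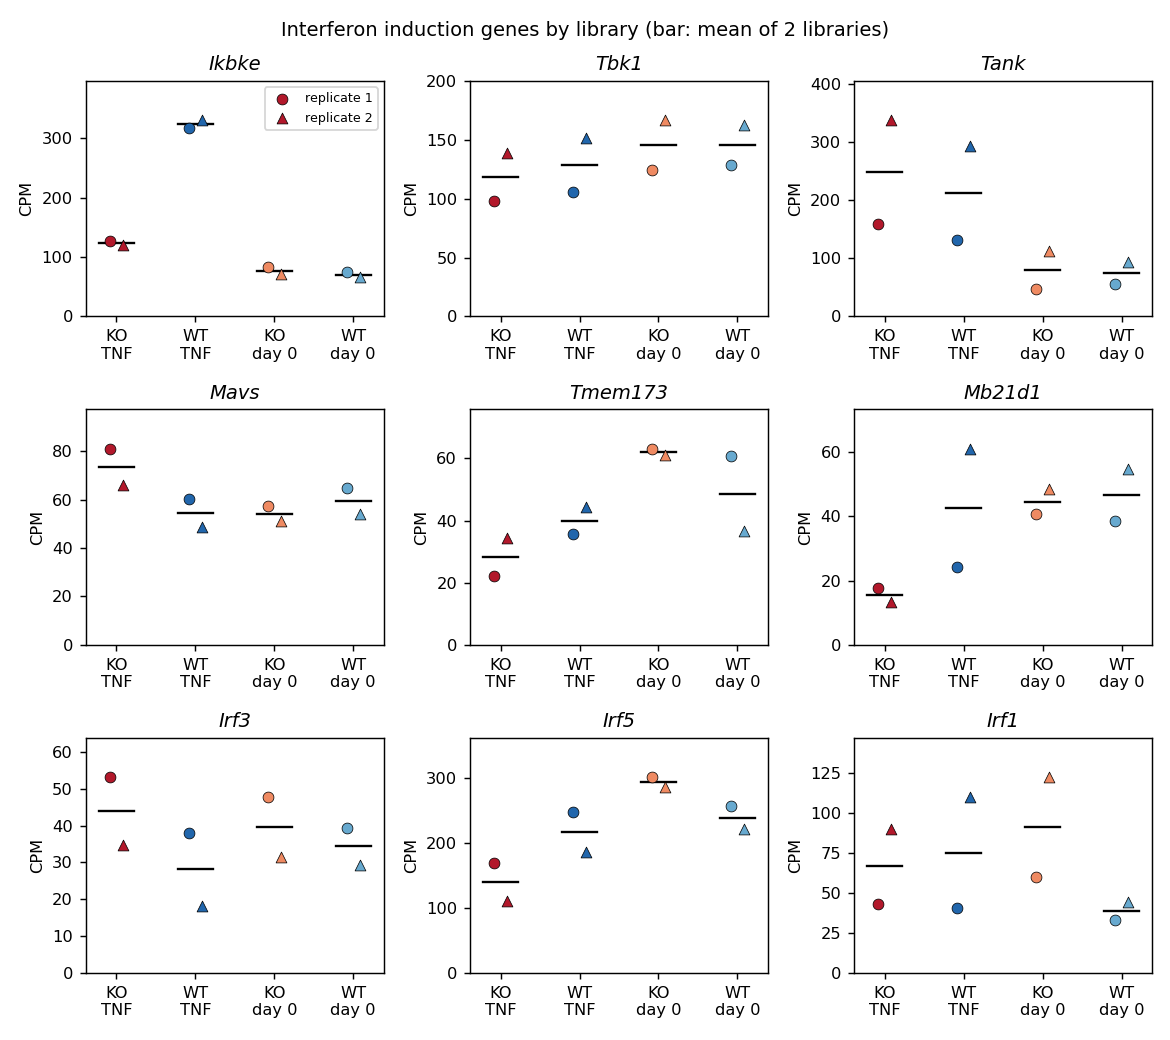
CPM of the 9 genes (y axis) in each library of the 4 groups (x axis), with circles for replicate 1, triangles for replicate 2 and a bar for the mean of 2 libraries. Ikbke sits at 317 and 329.9 CPM in wild type with TNF and at 126 and 121 CPM in the knockout with TNF, while Tank is high with TNF in both genotypes.

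The windows around the RefSeq start sites of the 2 genes that passed in both genotypes are shown because they are the inducible members of the kinase module. Each runs from 250 bases before the start site to 50 after it, 5′ to 3′ on the gene's strand (GRCm38.p6, chr1:131279514-131279813, minus strand, for Ikbke and chr2:61592847-61593146, plus strand, for Tank). Capitals mark matches on either strand to the NF-kB letters (GGG, any 5 bases, CC). Ikbke has 1 window in the table and Tank 4, of which the first listed is shown, another overlaps it, and a further pair lies upstream at chr2:61578307-61578606 and chr2:61578336-61578635. Windows were found for 8 of the 9 genes, that of Mb21d1 under its current symbol Cgas.
Ikbke: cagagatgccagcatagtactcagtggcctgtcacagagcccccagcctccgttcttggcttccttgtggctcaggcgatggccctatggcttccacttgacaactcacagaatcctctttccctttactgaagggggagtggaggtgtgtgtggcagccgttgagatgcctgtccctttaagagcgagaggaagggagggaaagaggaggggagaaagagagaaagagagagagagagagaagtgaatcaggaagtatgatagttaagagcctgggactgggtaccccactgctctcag
Tank: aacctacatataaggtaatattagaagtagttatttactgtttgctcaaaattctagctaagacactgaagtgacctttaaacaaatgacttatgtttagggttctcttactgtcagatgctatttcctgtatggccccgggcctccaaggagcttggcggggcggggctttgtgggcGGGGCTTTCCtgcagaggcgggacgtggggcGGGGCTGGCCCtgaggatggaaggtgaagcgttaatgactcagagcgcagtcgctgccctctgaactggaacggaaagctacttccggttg
The Ikbke window held no such match. The Tank window shown held 3 NF-kB matches, at bases -72, -41 and -40 from the start site, the last 2 of which overlap. Those letters also lie in its overlapping window, and the upstream pair held 1 match each, at bases -10 and -39. NF-kB letters this loose occur in 50.8% of the 32851 RefSeq windows, so a match is a description of the letters and no evidence of binding. The letters TGGGAA, the core that RBP-J binds, occur in 25.6% of the windows and in neither of these.

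Among the member sensors and adaptors, Mb21d1 and Tmem173 had lower levels in the knockout with TNF than in the knockout at day 0. Mavs did not. The RIG-I-like receptors upstream of Mavs were also lower there in each replicate. In replicates 1 and 2 Dhx58 was at 20.1 and 35.0 CPM with TNF and 46.5 and 174 CPM at day 0. Ifih1 was at 31.7 and 107 CPM and at 36.5 and 268 CPM. Ddx58 was at 46.9 and 150 CPM and at 48.7 and 398 CPM. A split between the DNA and RNA branches was not tested. Mb21d1, the DNA sensor, stood at 17.7 and 13.3 CPM in the knockout with TNF, 24.2 and 60.9 CPM in wild type with TNF, 40.7 and 48.3 CPM in the knockout at day 0 and 38.4 and 54.5 CPM in wild type at day 0. Both libraries of the knockout with TNF were below the other 6. The spread was widest in wild type with TNF, where replicate 2 was 2.52 times replicate 1. In the knockout TNF changed Mb21d1 by -1.501 ± 0.37 log2 (limma adjusted p = 0.0293 with the block, and 0.133 without it), and the pairs gave 0.433 and 0.276 of the day 0 level. That call was lost without replicate 2 of the knockout with TNF (adjusted p = 0.159) or replicate 1 or 2 of the knockout at day 0 (0.142 and 0.125). Between knockout and wild type after TNF the log2 difference was -1.30 ± 0.37 (limma adjusted p = 0.0798 with the block, and 0.359 without it), and the ratio was 0.730 in replicate 1 and 0.219 in replicate 2.

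Tmem173, the adaptor that cGAS activates, stood at 22.1 and 34.2 CPM in the knockout with TNF, 35.5 and 44.2 CPM in wild type with TNF, 63.1 and 61.1 CPM in the knockout at day 0 and 60.7 and 36.7 CPM in wild type at day 0. The knockout with TNF was the lowest group, while wild type at both times overlapped. In the knockout TNF changed it by -1.16 ± 0.31 log2 (limma adjusted p = 0.0381 with the block, and 0.123 without it). This call was lost in 5 of the 8 fits that left out a library, both wild-type TNF libraries included (adjusted p 0.0598 to 0.167), and after each of 3 rescalings with the block (0.0679 to 0.0784). The wild-type change was -0.25 log2 with a 95% interval of -0.996 to 0.50.

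Mavs, the mitochondrial adaptor for RNA, stood at 81.0 and 65.9 CPM in the knockout with TNF, 60.2 and 48.7 CPM in wild type with TNF, 57.3 and 51.1 CPM in the knockout at day 0 and 64.9 and 54.1 CPM in wild type at day 0. Both libraries of the knockout with TNF were above both of wild type with TNF and both of the knockout at day 0. The change with TNF in the knockout was 0.43 ± 0.14 log2 (limma adjusted p = 0.0644 with the block, and 0.428 without it). After TMM, median-ratio or quantile rescaling with the block the same comparison passed (adjusted p 0.0290 to 0.0324).

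Among the member interferon regulatory factors, limma on all libraries without rescaling called only Irf5, and only with the block. The factors were not tested against each other. Irf5 stood at 170.2 and 112 CPM in the knockout with TNF, 248 and 186 CPM in wild type with TNF, 302 and 287 CPM in the knockout at day 0 and 257 and 223 CPM in wild type at day 0. The knockout with TNF was the lowest group and the knockout at day 0 the highest, with no overlap of either with wild type of the same time. With TNF, Irf5 fell in the knockout, with a change of -1.09 ± 0.18 log2 (limma adjusted p = 0.00753 with the block, and 0.0865 without it), a call lost without replicate 2 of the knockout with TNF (adjusted p = 0.0501) or at day 0 (0.0761). In wild type the change was -0.15 log2, with a 95% interval of -0.57 to 0.27. Knockout against wild type after TNF gave -0.64 ± 0.18 log2 (limma adjusted p = 0.0723 with the block), and this comparison passed after TMM, median-ratio and quantile rescaling with the block (adjusted p 0.0361 to 0.0486). Exons of Tnpo3 on the opposite strand overlap 14.15% of the exon bases of Irf5, and the counting is not stated to have used strand.

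Irf3, the factor that TBK1 phosphorylates, stood at 53.1 and 34.8 CPM in the knockout with TNF, 38.01 and 18.2 CPM in wild type with TNF, 47.6 and 31.4 CPM in the knockout at day 0 and 39.3 and 29.4 CPM in wild type at day 0. Replicate 1 was higher in each group and the groups overlapped. Knockout over wild type after TNF was 1.396-fold and 1.91-fold within replicates 1 and 2, a log2 difference of 0.69 ± 0.19 (limma adjusted p = 0.0758 with the block, and 0.708 without it).

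Irf1, a factor that cytokines induce, was higher in replicate 2 of each group. It stood at 43.5 and 90.4 CPM in the knockout with TNF, 40.6 and 109.9 CPM in wild type with TNF, 60.4 and 123 CPM in the knockout at day 0 and 33.1 and 44.8 CPM in wild type at day 0. Wild type at day 0 was low in both replicates, and both knockout libraries at day 0 were above it, by 1.82-fold and 2.73-fold. That day 0 difference, 1.15 ± 0.24 log2, did not pass (limma adjusted p = 0.367 with the block, and 1 without it). With TNF the replicate pairs of wild type were at 1.23 and 2.45 times the day 0 level, and those of the knockout at 0.721 and 0.738 times (limma adjusted p = 0.0870 and 0.205 with the block).

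**Figure D2:**
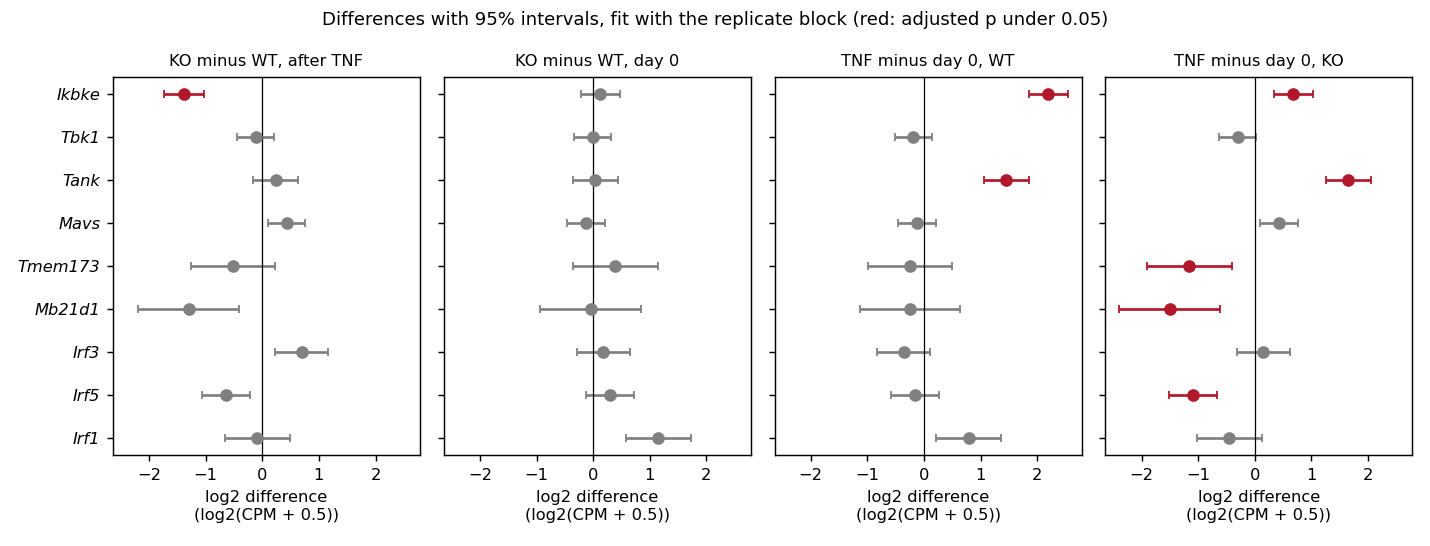
Log2 differences (x axis, log2(CPM + 0.5)) of the 9 genes (y axis) in 4 comparisons, with 95% intervals from the fit with the replicate block, in red where the adjusted p over all genes passed. Ikbke is at -1.38 between knockout and wild type after TNF, and 5 genes are red in the comparison of TNF with day 0 in the knockout.

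Counted over the 9 genes, 1 rose and 0 fell with TNF in wild type in limma without the block, where 0.812% of all 12194 genes rose and 0.369% fell. Either direction counted, 1.18% of all genes passed. With the block 2 rose and 0 fell, where 10.3% of all genes passed, 5.54% higher and 4.71% lower. In the knockout TNF raised 2 (Ikbke and Tank) and lowered 3 (Irf5, Tmem173 and Mb21d1) with the block, where 25.9% of all genes passed, 12.2% higher and 13.7% lower. Without the block 0 of the 9 passed there, where 5.1% of all genes did, 3.09% higher and 2.01% lower. Of those 9, 5 had an unadjusted p under 0.05, edgeR called 0 and DESeq2 called 2. The median log2 change of the 9 was -0.30 in the knockout and -0.15 in wild type, beside -0.10 and -0.12 for all genes tested. Rescaling by TMM or median ratio moved the median of all genes in wild type up by 0.11 and 0.12 log2, so changes of this size are not read as a direction.

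Between knockout and wild type after TNF, 0 of the 9 were called higher and 1, Ikbke, lower with the block, where 9.28% of all genes passed, 5.53% higher and 3.75% lower. Without the block limma called 0 of the 9 and 0.0082% of all genes. Of the 9, 2 had an unadjusted p under 0.05, edgeR called 0 and DESeq2 called 1. At day 0, 0 of the 9 were called in limma, and 0% of all genes without the block and 0.0082% with it. With the block 1 of the 9, Irf1, had an unadjusted p under 0.05, without it 0 had, and edgeR and DESeq2 called 0. For the difference of the TNF responses limma called 0 of the 9 and 0% of all genes with or without the block. Unadjusted p was under 0.05 for 1 of the 9 without it and 4 with it, edgeR called 0 and DESeq2 called 1, Ikbke.

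Compared per kilobase of exon (GENCODE M21), the mean level over the 8 libraries was highest for Irf5 at 76.8 CPM per kb, followed by Tbk1 at 34.5, Tank at 25.2, Mavs at 18.1 and Irf1 at 17.1 CPM per kb. Ikbke at 16.5, Tmem173 at 16.3, Irf3 at 10.6 and Mb21d1 at 9.03 CPM per kb were the lower members. Neighbours from Mavs to Tmem173 in this order were closer to each other than their spread across the libraries. In wild type with TNF, Ikbke at 35.2 and 36.6 CPM per kb lay within the range of Tbk1, 27.1 and 38.8 CPM per kb. In the knockout with TNF, Ikbke was at 14.0 and 13.4 CPM per kb, below Tbk1 at 25.2 and 35.5 CPM per kb. The order rests on the lengths used, which join all annotated exons of a gene, 9.02 kb for Ikbke and 3.91 kb for Tbk1. Lengths of the transcripts present were not measured. Without division by length, Ikbke was at 126 and 121 CPM in the knockout with TNF, beside 98.6 and 139 CPM for Tbk1. Which of the 2 kinases had more transcripts is therefore not settled.

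The replicate number moved several of these genes in the same direction in all 4 groups. Replicate 2 was above replicate 1 in every group for Tank (by 0.75 to 1.23 log2), Irf1 (0.43 to 1.43 log2) and Tbk1 (0.34 to 0.51 log2). It was below replicate 1 in every group for Irf3 (-0.41 to -1.04 log2), Irf5 (-0.07 to -0.61 log2) and Mavs (-0.16 to -0.30 log2). Ikbke stayed within 0.22 log2 of 0, while Mb21d1 and Tmem173 went both ways. Summed stromal markers (5 genes) moved with the number too, at 118 to 176 CPM over the replicate 1 libraries and 3.998 to 30.6 CPM over those of replicate 2. The interferon-stimulated targets named below, Ifi44 among them, were higher in replicate 2 of every group. The part of either set in these values was not tested.

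**Figure D3:**
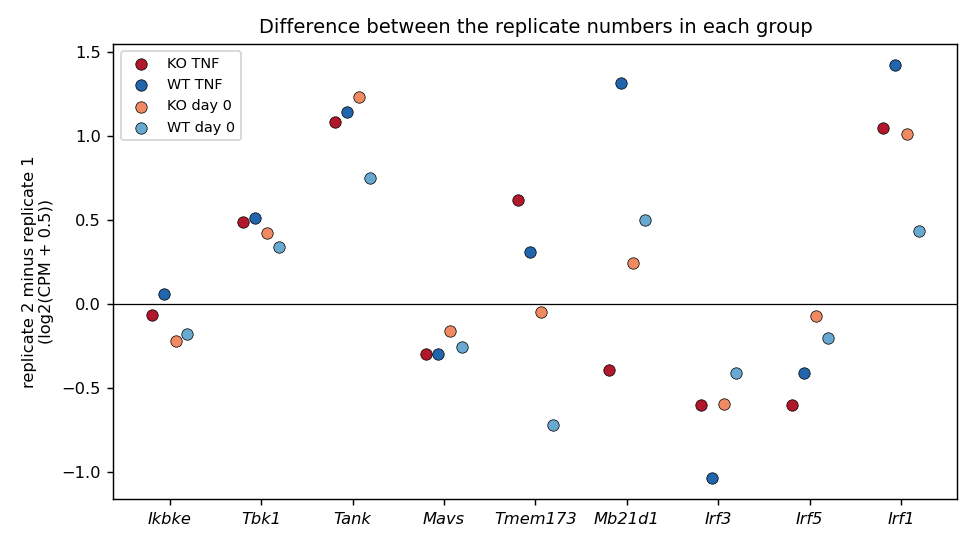
Difference of replicate 2 minus replicate 1 (y axis, log2(CPM + 0.5)) for each of the 9 genes (x axis), with 1 point for each of the 4 groups. Tank lies between 0.75 and 1.23 in all 4 groups, and Ikbke lies near 0.

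Transcripts of interferons themselves were near or at 0. Of 15 interferon genes in the table, 12 had 0 reads in all libraries and none passed the filter. Ifnb1 had 2 reads over both libraries of the knockout with TNF, 2 over those of wild type with TNF, and 0 in the knockout and 0 in wild type at day 0. Ifng had 1 read in the knockout with TNF and 12 in wild type with TNF, and 0 in both groups at day 0. Of those 12, 11 were in replicate 2, and the Ifnb1 reads were all in replicate 2 of their group. Ifnk had 1 read, in wild type with TNF. Depth with TNF was 9855859 and 18962533 reads in genes in the knockout and 35653203 and 23581922 in wild type. The interferon reads are therefore not read as a genotype difference. A count of 0 allows up to 3 reads, or 0.0841 to 0.304 CPM depending on the library, for counting error only.

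Other interferon regulatory factors were mostly lower with TNF in the knockout. Of 5 tested, 3 fell and 0 rose there with the block, where 13.7% of all genes fell. In wild type 0 were called, where 10.3% of all genes were. The difference of the TNF responses was called for 0 of the 5 in limma, with or without the block (unadjusted p under 0.05 for 4 and 2). Irf8, the myeloid factor that restrains osteoclast formation, stood at 58.6 and 33.3 CPM in the knockout with TNF, 160.4 and 102 CPM in wild type with TNF, 224 and 151 CPM in the knockout at day 0 and 218 and 115 CPM in wild type at day 0. It was lower in the knockout than in wild type after TNF (-1.52 ± 0.15 log2, limma adjusted p = 0.0165 with the block, and 0.272 without it), a call lost without replicate 2 of either of these groups. Irf2 differed by -0.85 log2 there (limma adjusted p = 0.0346 with the block, and 0.297 without it) and held in 1 of the 8 fits that dropped a library. With TNF in the knockout Irf8 changed by -2.04 log2 (limma adjusted p = 0.000875 with the block, and 0.0574 without it). Irf9, the DNA-binding part of ISGF3, changed by -1.16 log2 with TNF in the knockout, and Irf2, a counterpart of Irf1, by -0.74 log2 (limma adjusted p = 0.00770 and 0.0229 with the block, and 0.391 and 0.202 without it). Irf7, the interferon-induced partner of Irf3, was not called in any contrast and was far higher in replicate 2 of every group, at 29.8 and 179.7 CPM in the knockout with TNF, 21.2 and 786 CPM in wild type with TNF, 44.6 and 1129.6 CPM in the knockout at day 0 and 20.8 and 393 CPM in wild type at day 0.

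Of 19 other nucleic acid sensors and nucleases, 10 fell and 0 rose with TNF in the knockout with the block, where 13.7% of all genes fell, and between 2 and 11 were called when 1 library was left out. The difference of the TNF responses was called for 0 of the 19 in limma (unadjusted p under 0.05 for 13 with the block and 1 without it). In wild type, where 4.71% of all genes fell with the block, 1 fell, Rnaseh2b of ribonuclease H2 (-0.80 log2, limma adjusted p = 0.0475 with the block, and 0.304 without it). The members with the largest changes in the knockout were the endosomal receptors Tlr9 (-2.97 log2), Tlr8 (-2.36 log2) and Tlr7 (-2.18 log2) and the DNA sensor Ifi204 (-2.08 log2), with limma adjusted p = 0.00867, 0.00246, 0.00173 and 0.0475 with the block. Without the block Tlr8, Tlr7 and Ifi204 did not pass (limma adjusted p = 0.101, 0.153 and 0.554). Tlr9 passed in that fit too (adjusted p = 0.0445). It stood at 1.42 and 2.53 CPM in the knockout with TNF, 3.42 and 4.28 CPM in wild type with TNF, 10.3 and 32.8 CPM in the knockout at day 0 and 8.75 and 5.42 CPM in wild type at day 0, so that replicate 2 of the knockout at day 0 was far above the rest. That library was also high in summed plasmacytoid dendritic cell markers (4 genes), which were at 4.16 and 15.0 CPM in the knockout with TNF, 6.31 and 28.8 CPM in wild type with TNF, 8.08 and 24.3 CPM in the knockout at day 0 and 4.92 and 3.78 CPM in wild type at day 0. In replicate 2 of the knockout Siglech went from 10.8 to 1.37 CPM with TNF and Ccr9 from 7.42 to 1.63 CPM. Spib, another of the 4, went from 4.71 to 11.5 CPM there and reached 26.2 CPM in replicate 2 of wild type with TNF. With TNF in the knockout, where 13.7% of all genes fell with the block, 1 of the 3 plasmacytoid dendritic cell markers tested was called lower (median -1.39 log2). So were 2 of 4 B cell markers (-1.59 log2), whose sum was 1.01 and 1.90 CPM in the knockout with TNF and 8.18 and 10.2 CPM in the knockout at day 0. In the same comparison, where 12.2% of all genes rose, the 1 T and NK cell marker tested and 1 of 2 mast cell markers were called higher. The part of these lists in these changes was not tested. Tlr7, the receptor for single-stranded RNA, stood at 54.9 and 99.1 CPM in the knockout with TNF and 125 and 378 CPM in wild type with TNF, a log2 difference of -1.55 (limma adjusted p = 0.0201 with the block, and 0.502 without it). Tlr8 differed by -1.87 log2 in the same comparison (limma adjusted p = 0.0203 with the block, and 0.341 without it). Both calls were lost without replicate 2 of either group, and that of Tlr8 also without replicate 1 of wild type with TNF.

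Among 20 other adaptors and kinases, 3 rose and 4 fell with TNF in the knockout and 2 rose and 1 fell in wild type, with the block, where 25.9% and 10.3% of all genes were called in either direction. Slc15a3, a lysosomal transporter that assists nucleic acid sensing, was at 85.8 and 90.0 CPM in the knockout with TNF, 189 and 260.3 CPM in wild type with TNF, 363 and 401 CPM in the knockout at day 0 and 274 and 208 CPM in wild type at day 0. With TNF in the knockout it fell by 2.11 on the log2 scale (limma adjusted p = 0.0110, and 0.00189 with the block). Traf3, the ubiquitin ligase that links adaptors to TBK1, changed by 0.84 log2 in the knockout and 0.95 log2 in wild type (limma adjusted p = 0.0111 and 0.0156 with the block, and 0.119 and 0.168 without it). Tlr4, the lipopolysaccharide receptor, changed by -1.85 log2 in the knockout and -1.04 log2 in wild type (limma adjusted p = 0.00189 and 0.0224 with the block, and 0.103 and 0.531 without it). The rest named by rule were Traf6 (1.08 log2) and the Toll-like receptor chaperone Unc93b1 (-1.03 log2) in the knockout and Irak2 (0.99 log2) in wild type (limma adjusted p 0.0219 to 0.0357 with the block, and 0.113 to 0.215 without it).

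After TNF, Tbkbp1, another scaffold of TBK1, was higher in the knockout than in wild type by 1.09 log2, and Slc15a3, Unc93b1 and Tlr4 were lower, with differences of -1.33, -1.12 and -1.02 log2 (limma adjusted p 0.0239 to 0.0397 with the block, and 0.176 to 0.729 without it). Tbkbp1 was called in 1 of the 8 fits that left out a library, Tlr4 and Unc93b1 in 3 and Slc15a3 in 5.

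Of 17 regulators of the pathway, 2 rose and 4 fell with TNF in the knockout and 1 rose and 2 fell in wild type, with the block, beside the same 25.9% and 10.3% of all genes. Enpp1, which degrades the cGAS product, stood at 4.57 and 3.11 CPM in the knockout with TNF, 7.54 and 6.997 CPM in wild type with TNF, 29.9 and 24.9 CPM in the knockout at day 0 and 30.4 and 43.3 CPM in wild type at day 0. With TNF it fell by 2.70 on the log2 scale in the knockout and fell by 2.24 in wild type (limma adjusted p = 0.0114 and 0.0418, and 0.00178 and 0.00635 with the block). Nlrc3, which restrains STING, fell by 3.21 on the log2 scale in the knockout (adjusted p = 0.00912) and changed by -1.74 in wild type (0.0995, and 0.0196 with the block). Tnfaip3, the ubiquitin-editing inhibitor A20, rose by 2.21 log2 in the knockout (adjusted p = 0.0276) and changed by 2.04 in wild type (0.0692, and 0.0132 with the block). After TNF, Nlrc3 was lower in the knockout than in wild type, with a difference of -1.44 log2 (limma adjusted p = 0.0391 with the block, and 0.217 without it), a call that held in 1 of the 8 fits that left out a library. Trim32, a ubiquitin ligase of STING, changed by -0.88 log2 with TNF in the knockout (limma adjusted p = 0.0177 with the block, and 0.153 without it).

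Downstream, 3 of 7 genes of the interferon receptor and ISGF3 fell and 0 rose with TNF in the knockout with the block, where 13.7% of all genes fell. In wild type 0 were called, where 10.3% of all genes were. The difference of the TNF responses was called for 0 of the 7 in limma, with or without the block (unadjusted p under 0.05 for 5 and 0). Those that fell were Stat2 (-1.77 log2), the receptor chain Ifnar2 (-1.16 log2) and Irf9, with limma adjusted p 0.00770 to 0.0124 with the block and 0.0744 to 0.451 without it. Irf9 is also counted among the other factors above, so the 2 lists share that call. Of 20 interferon-stimulated targets, 5 fell there with the block, where 13.7% of all genes fell and 25.9% were called in either direction, and between 0 and 14 were called when 1 library was left out. Among the 5 called, Oas3, an RNA-activated synthetase, had the largest change (-2.01 log2), followed by Ifit2 (-1.90 log2), Mx2 (-1.65 log2) and Xaf1 (-1.46 log2). Their limma adjusted p ran from 0.0241 to 0.0475 with the block and 0.652 to 0.759 without it. In wild type the median of the 20 targets was 0.02 log2 and in the knockout -1.29 log2, beside -0.12 and -0.10 log2 for all genes. These medians join replicates that did not always move alike. With TNF in the knockout Isg15 went from 8.15 to 8.42 CPM in replicate 1 and from 148 to 44.8 CPM in replicate 2. Oas3 fell in both there, from 51.7 to 22.1 and from 691 to 98.2 CPM. In wild type Oas3 went from 43.2 to 19.6 CPM in replicate 1 and from 305 to 366 CPM in replicate 2. The difference of responses was called for 0 of the 20 in limma (unadjusted p under 0.05 for 4 with the block and 0 without it). At day 0 all 20 had a higher mean log2 level in the knockout than in wild type, where 6195 of 12194 genes tested did, and 0 were called. The 20 come from the same libraries and are not independent of each other. Their median difference was 0.74 log2. Replicates of a group could differ by more than that, with Ifi44 at 1.42 and 182 CPM in the knockout with TNF, 0.561 and 410.3 CPM in wild type with TNF, 1.07 and 845 CPM in the knockout at day 0 and 0.692 and 357 CPM in wild type at day 0. Replicate 2 was the higher library in every group for every target named here. Among list genes named by rule, the knockout TNF calls of Irf8, Tlr7, Tlr8, Slc15a3, Tlr4, Nlrc3, Enpp1 and Tnfaip3 held in each of the 8 blocked fits that dropped a library. The other knockout TNF calls were each lost without replicate 2 of the knockout at day 0 and, apart from Tlr9 and Ifnar2, without replicate 2 of the knockout with TNF. In wild type every named list call was lost without replicate 2 of wild type with TNF. The lists' knockout TNF counts ran over these fits from 1 to 4 for the other factors, 2 to 7 for adaptors, 3 to 7 for regulators and 0 to 4 for the receptor and ISGF3. Both TNF comparisons within a genotype share their TNF libraries with the comparison of knockout and wild type after TNF, so these are not independent.

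**Figure D4:**
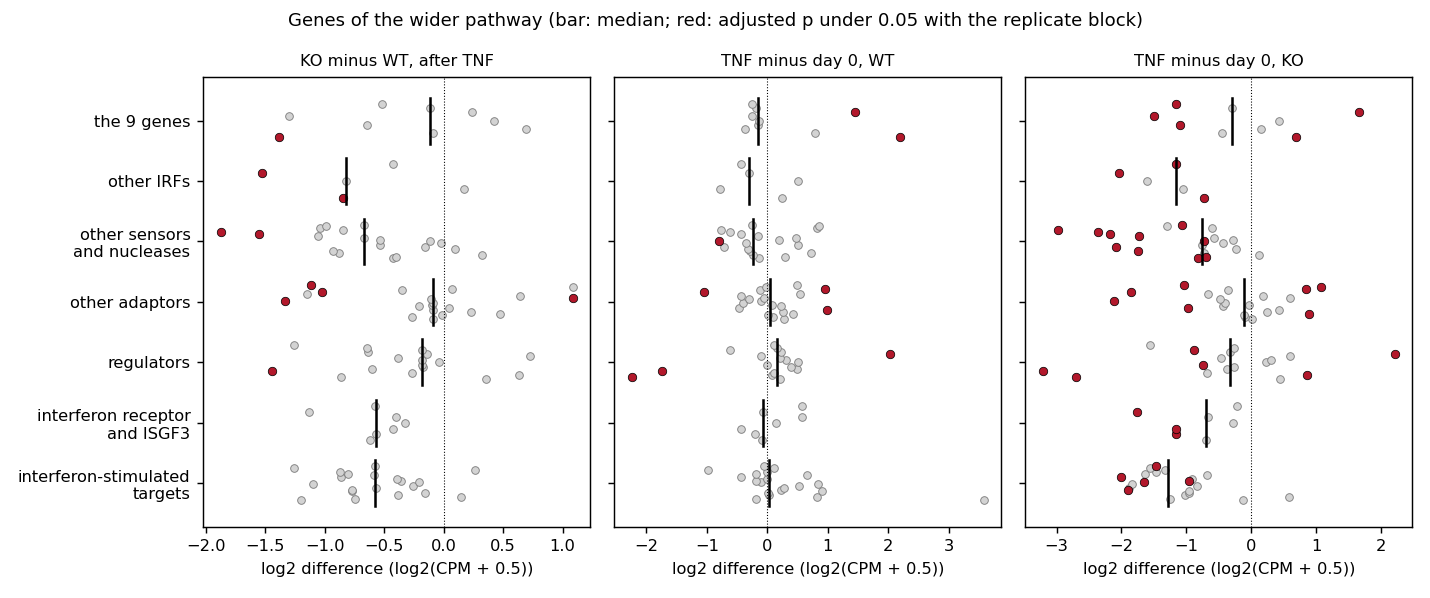
Log2 differences (x axis, log2(CPM + 0.5)) of the 9 genes and of 6 lists of related genes (y axis) in 3 comparisons, 1 point for each gene, with a bar at the median and red for an adjusted p that passed with the replicate block. In the knockout with TNF 10 of 19 other sensors are red and below 0, while the 9 genes hold 2 red points above 0 and 3 below it.

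Across the 8 libraries the gene most like Ikbke was Ift57, an intraflagellar transport gene (Pearson r = 0.993), followed by Tnfrsf8, the CD30 receptor (0.991), and the molybdenum cofactor gene Mocs1 (0.990). Ift57 stood at 25.6 and 27.1 CPM in the knockout with TNF, 52.9 and 60.7 CPM in wild type with TNF, 19.0 and 18.04 CPM in the knockout at day 0 and 20.4 and 17.0 CPM in wild type at day 0. Tank was most like the copper transporter gene Slc31a2 (0.990), with Slco5a1 (0.974) and Syt6 (0.972) next. Irf5 was most like Sdccag8 (0.982), Trmt44 (0.981) and Slc22a21 (0.980). Mb21d1 was most like Lilr4b (0.987), Ctla2b (0.985) and Stard3nl (0.971), and Tmem173 most like Arid5a (0.960), Rab43 (0.958) and Rtfdc1 (0.943). These are descriptions over 8 libraries in 4 groups, picked as the highest of 12194 genes, and the points share the replicate difference given above.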

How the data were processed

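Total RNA was extracted and poly-A transcripts of 8 libraries were sequenced, per the labels' protocols. Fastp, HISAT2, HTSeq and edgeR with build mm10 are named in the submitters' processing notes, and the tool versions, gene models and strand setting are not stated in the sources used here. What the authors deposited is 1 table of CPM, that is, gene reads scaled to each library's sum. In every library 100% of values were whole multiples of 1 read within 0.01, so reads were recovered. Of the 24421 symbols, 23350 are in GENCODE M21, from which GRCm38 exon lengths were taken, and 27 had become dates. Depth limits precision most in replicate 1 of the knockout with TNF.

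The test was limma (2-sided, lmFit and eBayes with trend) on log2(CPM + 0.5), a scale that understates changes of low genes, on 12194 genes that reached 1 CPM in 2 or more libraries. Group was the only term, all 8 libraries shared 1 spread (4 residual degrees of freedom), and p-values of each of the 5 contrasts were adjusted by Benjamini-Hochberg across the tested genes, with a threshold of 0.05. Recovered reads were tested with edgeR (quasi-likelihood) and DESeq2 as alternatives. edgeR and DESeq2 used the same gene filter. The software was DESeq2 1.42.0, edgeR 4.0.16 and limma 3.58.1 in R 4.3.3, and the functions were tested on simulated reads.

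Libraries with the same replicate number were taken as paired. The series states 2 independent experiments, and the replicate differences of any 2 groups correlated over genes (Pearson r from 0.577 to 0.805; genes are no independent replicates). The fit with the number as a block (3 residual degrees of freedom) stands beside the other where it changes the call of a named gene. Counts over the lists and marker lists are from the fit with the block unless stated otherwise.

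The 9 genes and the lists were chosen with earlier results of these data known. Named were the 9, up to 4 called genes of each list and contrast by size, all interferon genes with a read, the 3 most similar genes for each called member, and Rbpj and Hes1. Irf7, Traf3 in the knockout, Ifi44, Isg15, Oas3 in wild type, Fcgr1, Dhx58, Ifih1, Ddx58, Siglech, Ccr9 and Spib were added after their values were seen. List genes below the filter were not tested. RefSeq start-site windows (GRCm38.p6) gave the sequences.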

Additional observations from a re-analysis of the deposited data

Results flagged for a closer look

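For 6 of the 9 genes the replicate pairs of 1 group went 1 way and those of the other group the opposite way. None of these differences passed in limma over all genes, with or without the replicate block. Each pattern rests on the signs of 2 replicate pairs per group. The share of all genes with such a pattern was not counted, so the count is not read as a trait of these 9.

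With TNF, Irf1 was higher in both pairs of wild type and lower in both pairs of the knockout. Its difference of responses, knockout minus wild type, was -1.24 log2 (limma adjusted p = 0.151 with the block). Irf3 (0.51 log2, 0.396 with the block) and Mavs (0.56 log2, 0.213 with the block) were higher in both knockout pairs and lower in both wild-type pairs.

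Between genotypes, Ikbke (-1.51 log2, limma adjusted p = 0.104 with the block), Irf5 (-0.94 log2, 0.142) and Tmem173 (-0.91 log2, 0.344) were above wild type in both knockout replicates at day 0 and below it in both after TNF. Mavs did the reverse (0.56 log2).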

How the results depend on the processing

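Over 12 settings that kept all libraries, 528 of 531 log2 differences of the 9 genes kept their direction, 17 gained a call and 1 lost it. The 3 that turned were Mb21d1 with TNF in wild type by edgeR (0.059 log2) and DESeq2 (0.068), and Tbk1 between genotypes at day 0 by DESeq2 (0.0057). The cause was not tested. With the replicate block the number of the 9 called was 1 for knockout against wild type after TNF, 2 for TNF in wild type and 5 for TNF in the knockout. By edgeR with the block it was 1, 2 and 4. After median-ratio and TMM rescaling with the block, added after the data were seen, it was 2, 2 and 5, and after quantile normalization with the block 3, 2 and 5. There the 5 held Mavs in place of Tmem173. DESeq2 called 1, 1 and 2, and 1 for the difference of responses. Within the 4 libraries of a contrast, 0 were called for TNF in wild type, where the fit has fewer samples.

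With 1 library left out, the number called ran from 0 to 2 for knockout against wild type after TNF, 0 to 3 for TNF in wild type, 0 to 5 for TNF in the knockout, 0 to 1 for the difference of responses, and stayed at 0 at day 0. The log2 differences that turned did so among values not called. Their ranges over both fits were, for TNF in the knockout, -0.97 to 0.071 (Irf1) and -0.15 to 0.45 (Irf3). For TNF in wild type they were -0.88 to 0.16 (Irf3), -0.36 to 0.054 (Irf5), -0.28 to 0.022 (Mavs), -0.91 to 0.41 (Mb21d1), -0.45 to 0.068 (Tbk1) and -0.76 to 0.26 (Tmem173, and -0.61 to 0.11 without the block). Knockout against wild type after TNF gave -0.80 to 0.62 (Irf1), -0.34 to 0.81 (Tank) and -0.37 to 0.14 (Tbk1). At day 0 it gave -0.11 to 0.48 (Irf3), -0.29 to 0.21 (Mb21d1), -0.58 to 0.65 (Tank), -0.22 to 0.20 (Tbk1) and -0.12 to 0.90 (Tmem173). The difference of responses gave -0.0078 to 1.03 (Irf3), -0.42 to 0.82 (Tank) and -0.37 to 0.15 (Tbk1). With the block, the turned values not at the end of these ranges were 0.21 (Irf1 after TNF), 0.35 (Mb21d1 with TNF in wild type), 0.072 and 0.012 (Mb21d1 at day 0), -0.084 and -0.17 (Tank at day 0), 0.0071 and 0.061 (Tbk1 at day 0) and -0.0042 (Tank, difference of responses).

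Over all genes, the count called was 1 for knockout against wild type after TNF, 0 at day 0, 144 for TNF in wild type, 622 in the knockout and 0 for the difference of responses. With the block it was 1131, 1, 1250, 3162 and 0. By edgeR it was 0, 0, 60, 497 and 0, by edgeR with the block 811, 1, 1163, 3074 and 0, and by DESeq2 593, 24, 874, 1701 and 79. Within 4 libraries it was 0, 0, 39 and 72. For knockout against wild type after TNF it was 2 by median ratio, 4 by TMM, 4 by quantiles, 13 without the filter, 21 with a pseudocount of 2 and 0 with one of 0.1 or a filter at 5 CPM. Without the filter TNF in wild type had 78.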
